A study of Mus musculus with 26 samples.

Results

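The clustered protocadherins were examined in the ChIP-reChIP tables of mouse embryonic stem cells (ESCs). Members were all RefSeq curated genes with symbols beginning Pcdha, Pcdhb or Pcdhg in the interval of mm10 chromosome 18 that holds the 3 clusters, which gave 58 of 26182 genes. There were 14 genes in the alpha cluster, 22 in the beta cluster and 22 in the gamma cluster. Every region that the deposited tables list inside the interval was taken with them.

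Clustered protocadherins are cell adhesion proteins of neurons. Each neuron uses a different choice of them, and the combination on its surface lets its branches tell self from non-self. In the alpha and gamma clusters each variable gene contributes 1 large first exon with its own promoter, which is spliced to constant exons shared by the cluster, while beta genes are single-exon genes. The C-type genes at the 3′ ends of the alpha and gamma clusters (Pcdhac1, Pcdhac2, Pcdhgc3, Pcdhgc4 and Pcdhgc5) are known to be used more widely than the variable genes. Bivalent chromatin carries H3K4me3, a mark of active promoters, together with H3K27me3, a mark placed by Polycomb, on the same nucleosome. DPPA2 and DPPA4 are a pair of DNA-binding proteins of pluripotent cells that bind CpG-rich promoters.

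On chromosome 18 the alpha cluster spanned 36930285 to 37188897, the beta cluster 37264998 to 37521419 and the gamma cluster 37661775 to 37841873 (mm10, outer ends of the RefSeq transcripts). The alpha cluster held 12 variable genes and 2 C-type genes. The gamma cluster held 12 genes of type A, 7 of type B (among them Pcdhgb8, annotated as a transcribed pseudogene) and 3 of type C. First exons had median lengths of 2465 bp in the alpha, 3417.5 bp in the beta and 2578 bp in the gamma cluster. Slc25a2, which encodes a mitochondrial carrier, and Taf7, which encodes a TFIID subunit, lie between the beta and gamma clusters.

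The study mapped bivalent chromatin with reChIPs in both orientations, with H3K4me3 pulled down first (K4-K27) or H3K27me3 first (K27-K4). A share of the chromatin of each first ChIP was kept as the in-line total H3K4me3 or total H3K27me3. E14, a mouse ESC line used here as a non-clonal WT population, was profiled in replicates 1 and 2, sequenced in batches A and B respectively. The second set compared WT clones 57 and 58 with Dppa2/4 double knockout (DKO) clones 43 and 53, also of E14 origin. All cells grew in serum/LIF without other treatment, and all clone libraries belonged to sequencing batch C. Each genotype was represented by 2 clones, so a p-value for DKO against WT measures only the spread between 2 clones of a genotype. One IgG–IgG reChIP served each set, from E14 replicate 1 and from WT clone 57, and none came from a DKO clone. The study notes that its H3K4me3 antibody can also bind H3K4me2.

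Across the 26 libraries, 6741245 to 47903464 reads (median 16875029) stood behind the values, which are log2 read densities, scaled to library size and to the length of the region in kb. Clone reChIPs held 9242971 to 23330124 reads and clone totals 15601155 to 33848181. The total H3K4me3 library of WT clone 57 stood apart, with a median of 1.17 over the E14 K4-K27 regions against 0.32 in WT 58, 0.50 in DKO 43 and 0.39 in DKO 53. Total H3K4me3 was present at the promoters of all 7 stem cell markers examined in the clones. Total H3K4me3 at the promoters of Dppa2 (1.94 and 0.88 in WT, 2.14 and 1.33 in DKO) and Dppa4 (2.34 and 1.45 in WT, 2.39 and 1.56 in DKO) did not check the deletion, since a promoter can keep the mark when coding exons are lost.

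In E14 cells nearly every clustered protocadherin promoter lay in a reChIP region. A K27-K4 region was listed within 1.5 kb of the start site of 58 of the 58 genes, and a K4-K27 region at 57, with Pcdha8 as the exception. Over all RefSeq genes the shares were 66.2% and 58.7%. The lists held 36235 K27-K4 and 24540 K4-K27 regions, and the peak caller and filter behind them are not clear from the sources, so a listed region is one that the authors' table holds and not one above a known threshold. Total H3K27me3 regions stood at 34 of the 58 genes (7 alpha, 16 beta and 11 gamma), where 12.1% of all genes had one. That count depended on the promoter window and was much lower with 1 kb before to 100 bp after the start site. None of the 3 gamma C-type promoters was among the 34.

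Total H3K4me3 divided the clusters in E14 cells. Regions of this mark were listed at 16 of 22 gamma promoters, at 2 of 22 beta promoters (Pcdhb2 and Pcdhb3) and at 0 of 14 alpha promoters, against 53.2% of all genes. Within the gamma cluster they stood at 11 of 12 type A, 3 of 7 type B and 2 of 3 type C genes. A region list depends on the depth and threshold of the peak calling, so a missing region did not show that the mark was absent.

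**Figure D1:**
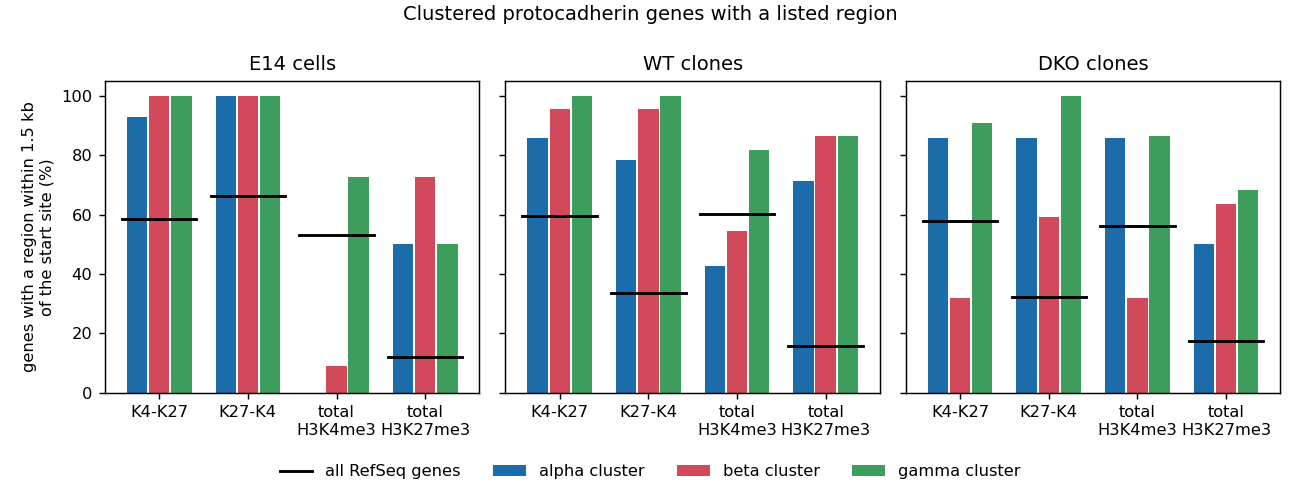
Share of the genes of each cluster (%) with a listed region within 1.5 kb of the start site, for E14 cells, WT clones and DKO clones, with bars for the alpha, beta and gamma clusters and a black line for all RefSeq genes. In E14 cells the reChIP bars reach 92.9% to 100% while the alpha cluster has no total H3K4me3 region, and in DKO clones the beta bar of K4-K27 stands at 31.8% against 95.5% in WT clones.

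More E14 reChIP regions of the clusters than of the genome stood well above the IgG–IgG background. Of the K27-K4 regions in the interval, 43 of 69 exceeded IgG–IgG by 2 log2 units or more in each K27-K4 replicate (62.3%), against 21.3% of all regions of that table. The counts were 9 of 16 in the alpha, 19 of 29 in the beta and 12 of 16 in the gamma cluster. Of the K4-K27 regions 38 of 82 did so (46.3%), against 19.8% of all. Totals were close to the background share, at 4 of 29 total H3K4me3 regions (13.8%, all regions 14.3%) and 19 of 76 total H3K27me3 regions (25.0%, all regions 25.8%).

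At the K27-K4 regions the clusters had similar reChIP medians over IgG–IgG. K27-K4 medians in replicates 1 and 2 were 2.14 and 3.18 in the alpha, 2.54 and 3.55 in the beta and 2.42 and 3.47 in the gamma cluster, against 1.28 and 2.09 over all regions. K4-K27 medians were 2.51 and 2.20, 2.45 and 2.45, and 2.19 and 2.71, against 0.60 and 1.45 over all. For K27-K4 the replicates of each cluster differed by more than the clusters differed within a replicate. In-line totals gave the opposite picture for the 2 marks. Total H3K4me3 medians were below those of all regions in each cluster (alpha 0.24 and 0.23, beta 0.48 and 0.41, gamma 0.62 and 0.86, all regions 0.81 and 0.93), and total H3K27me3 medians were above them (alpha 0.92 and 0.84, beta 1.23 and 1.28, gamma 0.77 and 0.78, all regions 0.11 and 0.05).

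**Figure D2:**
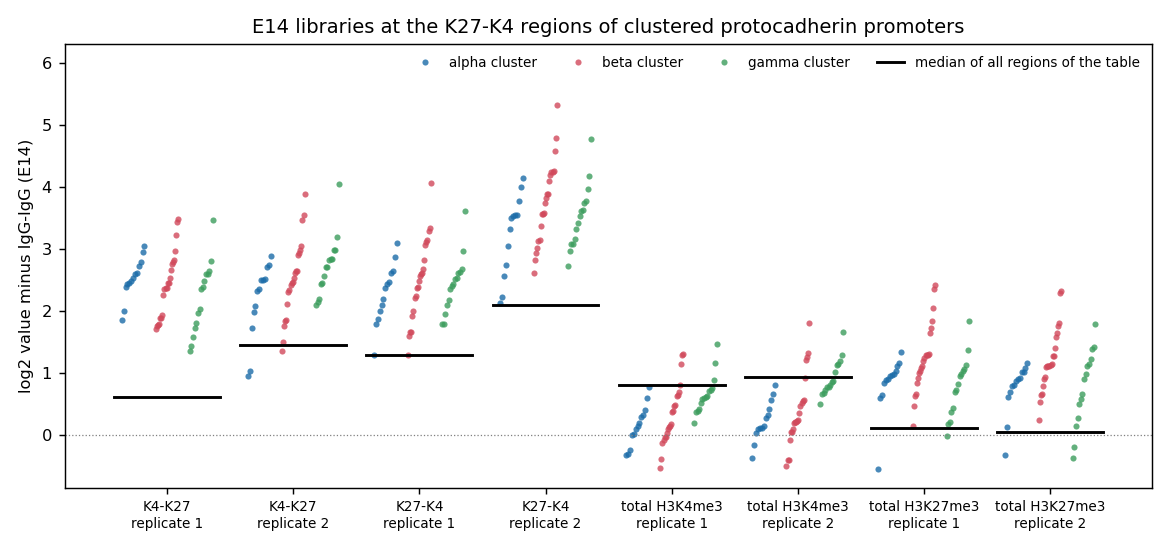
E14 libraries at the 50 K27-K4 regions that serve the 58 promoters (13 alpha, 22 beta, 15 gamma), as log2 value minus the IgG–IgG value, with 1 point per region sorted by height within each cluster and a black line at the median of all K27-K4 regions. In both replicates of both reChIPs the points sit mostly above that median (lowest 0.94, highest 5.32), and the total H3K4me3 points sit mostly below it.

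Single promoters were read at these 50 regions, since neighbours can share one. The widest, of 19650 bp, covered Pcdhgb5, Pcdhga9, Pcdhgb6 and Pcdhga10, so those genes have a single value. In all 4 E14 reChIP libraries 39 of the 58 genes (9 alpha, 15 beta, 15 gamma) reached 2 log2 units over IgG–IgG, and 57 reached 1. Genes that share a region are each counted, and the share of all regions that pass in all 4 libraries was not computed. Counted by region, 37 of the 50 reached 2 units in both K27-K4 replicates, against 21.3% of all K27-K4 regions. Pcdhb3 had the highest beta value, with K4-K27 at 3.48 and 3.88 and K27-K4 at 4.06 and 5.32 in replicates 1 and 2. Pcdhga11, which shares its region with Pcdhgb7, was highest in the gamma cluster, with 3.47 and 4.05, then 3.62 and 4.77. Pcdha1, the first gene of the alpha cluster, had 3.04 and 2.89, then 2.87 and 4.00. Pcdha8 was lowest, with K4-K27 at 2.00 and 0.94 and K27-K4 at 1.29 and 2.13.

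Both orientations were compared at the 61 regions of the interval that the E14 K4-K27 and K27-K4 tables list with the same coordinates. K27-K4 minus K4-K27 had medians of 0.37 in the alpha (13 regions), 0.60 in the beta (28) and 0.45 in the gamma cluster (15), against 0.70 over all 21857 shared regions. No region was called by limma with Benjamini-Hochberg adjustment, in the interval or elsewhere (0% called). At an unadjusted p under 0.05 there were 55 regions higher in K27-K4 over the genome and 0 in the interval. With the replicate number as a block 6.97% of all regions were called, and in the interval 1 region, which lay outside the clusters.

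CpG content at the E14 K4-K27 regions was near the median of the table. The medians were 2.31 CpG per 100 bp in the alpha, 2.06 in the beta and 2.52 in the gamma cluster, against 2.25 over all regions. Median GC content was lower than over all regions (45.0%, 45.7% and 47.4% against 49.7%). In the other lists CpG medians of the clusters were above those of all regions. At K27-K4 regions they were 2.68 in the alpha, 2.27 in the beta and 2.52 in the gamma cluster, against 2.14. At total H3K27me3 regions they were 2.70, 1.33 and 1.78, against 1.00. Total H3K4me3 regions had 2.93 in the beta (3 regions) and 3.48 in the gamma cluster, against 2.86.

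The clones address what happens at these promoters without DPPA2 and DPPA4. K27-K4 signal fell at most beta promoters in DKO clones, while most alpha and gamma promoters had smaller differences that were not called. At the E14 K27-K4 regions, which were called without any clone library, 19 of 69 regions in the interval were called lower in DKO and 0 higher (limma, Benjamini-Hochberg adjusted p under 0.05 and a log2 difference over 1). The background was 5.25% lower and 0.905% higher. All 19 lay at member promoters, 15 of them in the beta, 2 in the alpha and 2 in the gamma cluster. Median differences in K27-K4 over the promoter regions were −1.36 in the beta, −0.44 in the alpha and −0.50 in the gamma cluster, against −0.04 over all regions of the table. Without WT clone 57 the count was 13, without WT 58 it was 30, without DKO 43 it was 5 and without DKO 53 it was 2. At the E14 K4-K27 regions 7 of 82 were called lower in K4-K27, 6 of them in the beta cluster, and 0 higher (3.45% and 0.513% of all regions). That count was 1 without WT 57 or WT 58, 3 without DKO 43 and 5 without DKO 53.

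Each of the 15 called beta genes encodes a single-exon protocadherin. They were all beta genes except Pcdhb1, Pcdhb3, Pcdhb6, Pcdhb8, Pcdhb12, Pcdhb13 and Pcdhb22. Pcdhb7 read 2.63 in WT 57 and 1.95 in WT 58, and 0.01 in DKO 43 and 0.15 in DKO 53 (difference −2.21), with IgG–IgG at −0.34 in WT 57. Both WT clones stood well above both DKO clones. Pcdhb21 read 3.03 and 1.96 in WT and 0.29 and 0.25 in DKO (−2.22). Pcdhb9 read 2.57 and 1.57 in WT and −0.34 and 0.19 in DKO (−2.15). In both genes the DKO clones lay near 0 and below either WT clone.

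The beta medians by library were 2.02 in WT 57, 1.49 in WT 58, 0.37 in DKO 43 and 0.27 in DKO 53 for K27-K4. For K4-K27 at the same regions they were 1.41, 1.16, −0.10 and −0.25. Both DKO clones were below both WT clones at 21 of 22 beta regions in K27-K4 (background 25.6%), above at 0 (background 19.6%), and at 18 of 22 in K4-K27 (background 21.5%). Pcdhb1, the first gene of the cluster, was the exception in K27-K4 and the only beta gene with both DKO clones above both WT clones in K4-K27. It read 1.73 and 1.45 in WT and 1.52 and 1.31 in DKO in K27-K4, and 0.92 and 0.91 in WT and 1.32 and 1.28 in DKO in K4-K27, so that its groups overlapped in the first and DKO was the higher in the second.

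Genes of the beta cluster that were not called in K27-K4 had smaller differences in it or low levels. Pcdhb3, highest in E14, read 1.99 and 1.35 in WT and 0.77 and 0.85 in DKO (−0.86, adjusted p = 0.196 by limma with Benjamini-Hochberg adjustment). Pcdhb22, the last gene of the cluster, read 2.77 and 1.97 in WT and 1.61 and 1.46 in DKO (−0.84, adjusted p = 0.338 in the same fit). In both genes the groups did not overlap. Their mean K4-K27 differences at the regions listed in the clones were larger, at −2.52 for Pcdhb3 and −2.37 for Pcdhb22, also without a call. Both promoters had a K4-K27 region in the WT list alone, which favours a lower DKO value. Pcdhb8 was low in K27-K4 over this region in all 4 clones, at −0.01 and −0.80 in WT and −1.06 and −1.08 in DKO.

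Of the 13 alpha regions 2 were called in K27-K4, against 5.25% of all regions of that table. Both DKO clones were below both WT clones at 7 of 13 alpha regions in K27-K4 (background 25.6%) and at 8 of 13 in K4-K27 (background 21.5%). The 2 regions called lower in K27-K4 were at Pcdha1 and Pcdha5, both variable genes of the 5′ part of the cluster. Pcdha1 read 2.17 and 1.20 in WT and 0.68 and −0.05 in DKO (−1.37). Pcdha5 read 2.37 and 1.18 in WT and 0.90 and 0.01 in DKO (−1.32). In both genes the groups did not overlap. Pcdha12, the last variable gene, read 2.92 and 2.09 in WT and 1.87 and 1.64 in DKO (−0.75, not called).

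The alpha C-type genes were lower in DKO than in WT in both reChIPs, without a call. Pcdhac2 had the highest K27-K4 value of all member promoters in WT 57, at 3.41, with 2.57 in WT 58 and 2.43 and 2.21 in DKO (−0.67). Pcdhac1 read 2.30 and 2.25 in WT and 2.05 and 1.62 in DKO (−0.44). In K4−K27 Pcdhac2 read 2.91 and 2.64 in WT and 2.34 and 1.68 in DKO, and Pcdhac1 1.92 and 1.62 in WT and 1.20 and 1.53 in DKO. The groups did not overlap at either gene in either reChIP, and the median differences of the pair (−0.56 in K27−K4 and −0.59 in K4−K27) stood beside −0.43 and −0.52 for the 12 variable alpha genes. The neighbouring genes Pcdha6, Pcdha7 and Pcdha8, noted after their values were seen, were near or below 0 in the clones (−0.93 to 0.33 in K27-K4, IgG–IgG of WT 57 at −0.20, −0.40 and 0.42), although all 3 exceeded IgG–IgG in E14 (1.29 to 3.05 in K27-K4). Clonal derivation and sequencing batch cannot be told apart in that contrast.

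In the gamma cluster 2 of 15 regions were called lower in K27-K4, those of Pcdhgb4 and Pcdhgb8. They are the only type B genes with a region of their own, since the other 5 share theirs with type A genes, so types A and B could not be compared here. Both DKO clones were below both WT clones at 9 of the 15 gamma regions in K27-K4 (background 25.6%) and above at 0. Pcdhgb8 read 2.56 and 1.95 in WT and 0.68 and −0.09 in DKO (−1.96). Pcdhgb4 read 2.22 and 1.58 in WT and 0.42 and −0.36 in DKO (−1.87). At both the groups were far apart.

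No other gamma region was called. Pcdhga1, the first gene of the cluster, read 1.62 and 1.15 in WT and 1.09 and 1.35 in DKO (−0.17), so the groups overlapped. Pcdhga12, the last type A gene, read 3.11 and 2.23 in WT and 2.35 and 2.00 in DKO (−0.50), again with overlap. Pcdhgc3 read 2.68 and 1.96 in WT and 2.06 and 1.96 in DKO (−0.31), so its groups overlapped as well. Pcdhgc4 and Pcdhgc5 share a region, at 1.81 and 1.08 in WT and 1.45 and 1.20 in DKO (−0.12). In K4-K27 both DKO clones were below both WT clones at 1 of 15 gamma regions, against 21.5% of all regions. It was that of Pcdhgb4 (1.70 and 1.36 in WT, 0.29 and −0.05 in DKO). By library, gamma medians in K4-K27 were 1.75 and 1.36 in WT and 1.92 and 1.23 in DKO.

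**Figure D3:**
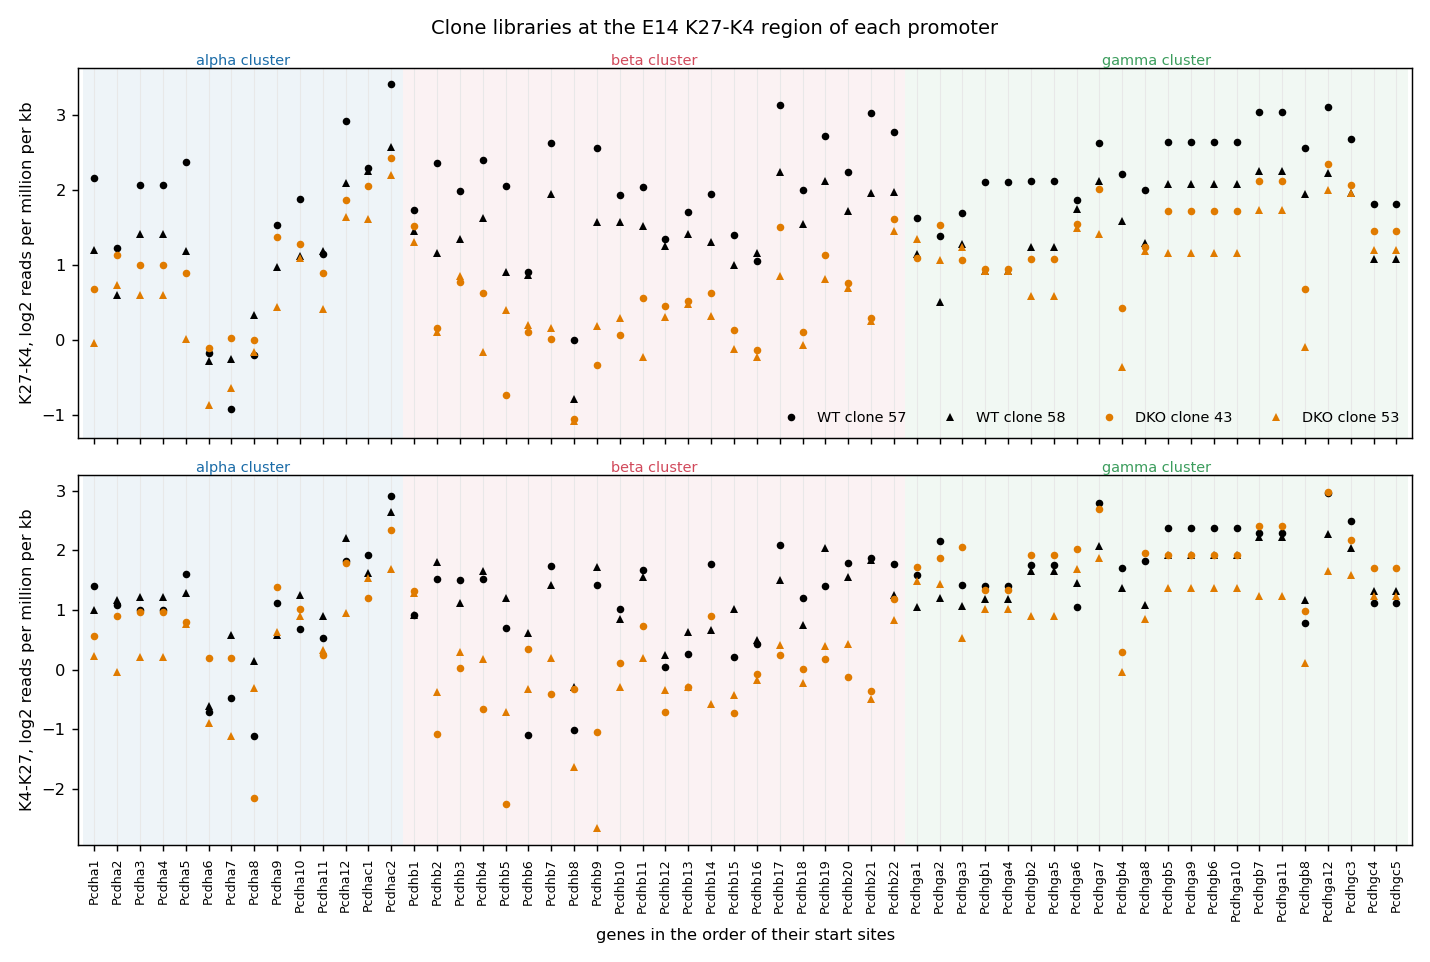
Values of the 4 clones (log2 read density per kb, scaled to library size) at the E14 K27-K4 region of each of the 58 promoters in the order of their start sites, K27-K4 above and K4-K27 below, with WT clones in black and DKO clones in orange. Genes that share a region repeat its values. Both orange points fall below both black points at 21 of 22 beta, 14 of 22 gamma (Pcdhgb4 and Pcdhgb8 among them) and 8 of 14 alpha genes in the upper panel. In the lower panel they do so at 18 of 22 beta, 1 of 22 gamma (Pcdhgb4) and 9 of 14 alpha genes.

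The lists of regions called in the clones themselves also set the beta cluster apart. A WT K4-K27 region was listed at 21 of 22 beta promoters and a DKO K4-K27 region at 7, with 15 beta genes listed in WT alone and 1 (Pcdhb15) in DKO alone. The alpha cluster had 12 promoters in each genotype and the gamma cluster 22 in WT and 20 in DKO. Over all RefSeq genes the shares were 59.4% in WT and 57.8% in DKO. For K27-K4 the beta count was 21 in WT and 13 in DKO, the gamma count 22 in both, and the alpha count 11 and 12, with 33.7% of all RefSeq genes in WT and 32.1% in DKO. The K4-K27 count depended on the promoter window. With 1 kb before to 100 bp after the start site, 36 member promoters had a K4-K27 region in WT and 35 in DKO, which is nearly equal.

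At the regions listed in WT or DKO clones, K4-K27 was called lower at 5 of 126 regions in the interval and higher at 0 (limma, Benjamini-Hochberg), against 1.19% and 0.00557% of all regions. All 5 lay in the first exons of beta genes, 4 of them regions of the WT list and 1 (Pcdhb18) of the DKO list, so that most entered through the genotype where they were high. Pcdhb21 (37515001 to 37516200) read 3.10 and 2.99 in WT and −0.20 and −1.64 in DKO, a difference of −3.96 ± 0.78 (SE) that rested on 95, 102, 11 and 5 reads. Pcdhb9 (37402351 to 37403400) read 2.31 and 2.57 in WT and −0.66 and −1.77 in DKO (−3.65 ± 1.00). Pcdhb2 (37296001 to 37297500) read 2.53 and 2.62 in WT and −0.18 and −1.70 in DKO (−3.51 ± 0.89). At each of them both WT clones were high and both DKO clones were near or below 0.

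The other 2 were Pcdhb11 (37422751 to 37424250), at 2.56 and 2.38 in WT and −0.28 and −0.11 in DKO (−2.67), and Pcdhb18 (37491151 to 37491450), at 4.17 and 3.07 in WT and 2.15 and 0.36 in DKO (−2.37). Median K4-K27 differences were −1.74 in the beta, −0.32 in the alpha and −0.02 in the gamma cluster, against −0.01 over all regions. In the DKO regions alone the beta median was 0.56. The number called in the interval was 0 without WT 57, 1 without WT 58, 1 without DKO 53 and 4 without DKO 43.

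K4-K27 signal was also high at active promoters in the clones. At Pou5f1, an active stem cell gene, it read 3.03 and 2.22 in WT and 3.49 and 3.06 in DKO, whereas K27-K4 there read −0.34, −0.02, −0.30 and 0.07. Taf7 had the same pattern (K4-K27 2.18, 1.75, 3.00 and 2.21, K27-K4 −1.18, −1.15, 0.00 and 0.22). Most beta promoters by contrast had signal in both orientations in WT clones, with K27-K4 above 1 in both WT clones at 18 of 22 genes.

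K27-K4 was called lower at 25 of 147 regions listed in the clones (3 alpha, 16 beta, 6 gamma) and higher at 0, against 2.24% and 0.027% of all regions. Of the 25, 16 were regions of the WT list and 9 of the DKO list. Overlapping WT and DKO regions of 1 gene are both counted. With DKO regions that overlap a WT region left out, 11 were called. The count was 21 without WT 57, 52 without WT 58 and 2 without DKO 43 or DKO 53. With limma's variance estimate used without its trend and robust options 0 were called. Both DKO clones were below both WT clones at 30.8% of all regions.

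Pcdhb7 (37342801 to 37344600) read 3.36 and 2.65 in WT and 0.44 and 0.84 in DKO in K27-K4, a difference of −2.36 ± 0.43. Pcdhb21 (37513501 to 37516500) read 3.10 and 2.03 in WT and 0.31 and 0.32 in DKO (−2.25 ± 0.42). Both DKO clones were more than 1 log2 unit below either WT clone. The largest difference was that of Pcdhb5, at −2.50 (2.68 and 1.55 in WT, 0.22 in DKO 53 and lower still in DKO 43).

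All 6 gamma regions called lower in K27-K4 belonged to Pcdhgb4, Pcdhgb5 and Pcdhgb8, each with its WT and its DKO region. Pcdhgb4 (37720051 to 37723650) read 2.96 and 2.32 in WT and 1.01 and −0.01 in DKO (−2.14 ± 0.43). Pcdhgb5 (37730701 to 37735350) read 2.62 and 2.15 in WT and 0.84 and 0.18 in DKO (−1.88 ± 0.42). Pcdhgb8 (37761451 to 37765500) read 2.55 and 1.95 in WT and 0.67 and −0.09 in DKO (−1.96 ± 0.42). At all 3 genes the groups were separate. With each region assigned to 1 gene, no region of a gamma A, gamma C or alpha C gene was called in either reChIP, although the called Pcdhgb8 regions also lie within 1.5 kb of the start site of Pcdhga12.

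Regions were also grouped by place. Among the regions listed in the clones, those that cover a member's start site were called lower in K4-K27 at 0 of 61 (median difference −0.07), and those inside the first exon that do not reach the start site at 5 of 46 (−1.39). Both DKO clones were below both WT clones at 11 of the former and 35 of the latter (background 19.2%), and above at 10 and 2 (background 19.7%). For K27-K4 the counts were 12 of 77 at start sites (−0.59) and 13 of 29 inside first exons (−1.68).

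The places hold different clusters. In K4-K27 the start site regions were 36 gamma, 19 alpha and 6 beta, and 27 of the 46 exon regions were beta. Within the beta cluster the K4-K27 medians were 0.55 at start sites and −1.88 inside exons, within the alpha cluster −0.18 and −1.02, and within the gamma cluster −0.02 and −0.78. The beta start site median was −0.62 over the 3 regions of the WT list and 0.63 over the 3 of the DKO list. In K27-K4, 25 of the 29 exon regions were beta, with medians of −1.15 at 18 start site regions and −1.68 inside exons. Gamma had 6 of 37 start site regions called in K27-K4 (−0.56) and 0 of 1 exon region (−0.50).

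A region listed in WT is likely to be high in WT, which can itself give a lower value in DKO. Exon regions of K4-K27 were listed 37 times in WT and 10 times in DKO, whereas start site regions were listed 33 times in each, so the contrast by place cannot be told apart from this selection. In the DKO regions alone the K4-K27 medians were 0.05 at start sites and −0.43 inside exons. At the E14 total H3K27me3 regions, called without the clones, the median K4-K27 differences were −0.93 at the 9 regions that cover a start site and −0.94 at the 31 exon regions. Of all 76 such regions in the interval 0 were called in K4-K27 (0.00465% lower over all), and in K27-K4 9 were called lower and 0 higher (1.58% and 0.0186%). These medians mix clusters, since 7 of the 9 start site regions and 14 of the 31 exon regions were beta. Within the beta cluster the medians were −1.09 at start sites and −1.33 inside exons. The alpha and gamma clusters had 1 start site region each, at −0.78 and 0.11, against exon medians of −0.92 over 7 regions and −0.20 over 10. The regions were wider than those of the WT table (median 2700 and 2100 bp against 1800 and 1200 bp).

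**Figure D4:**
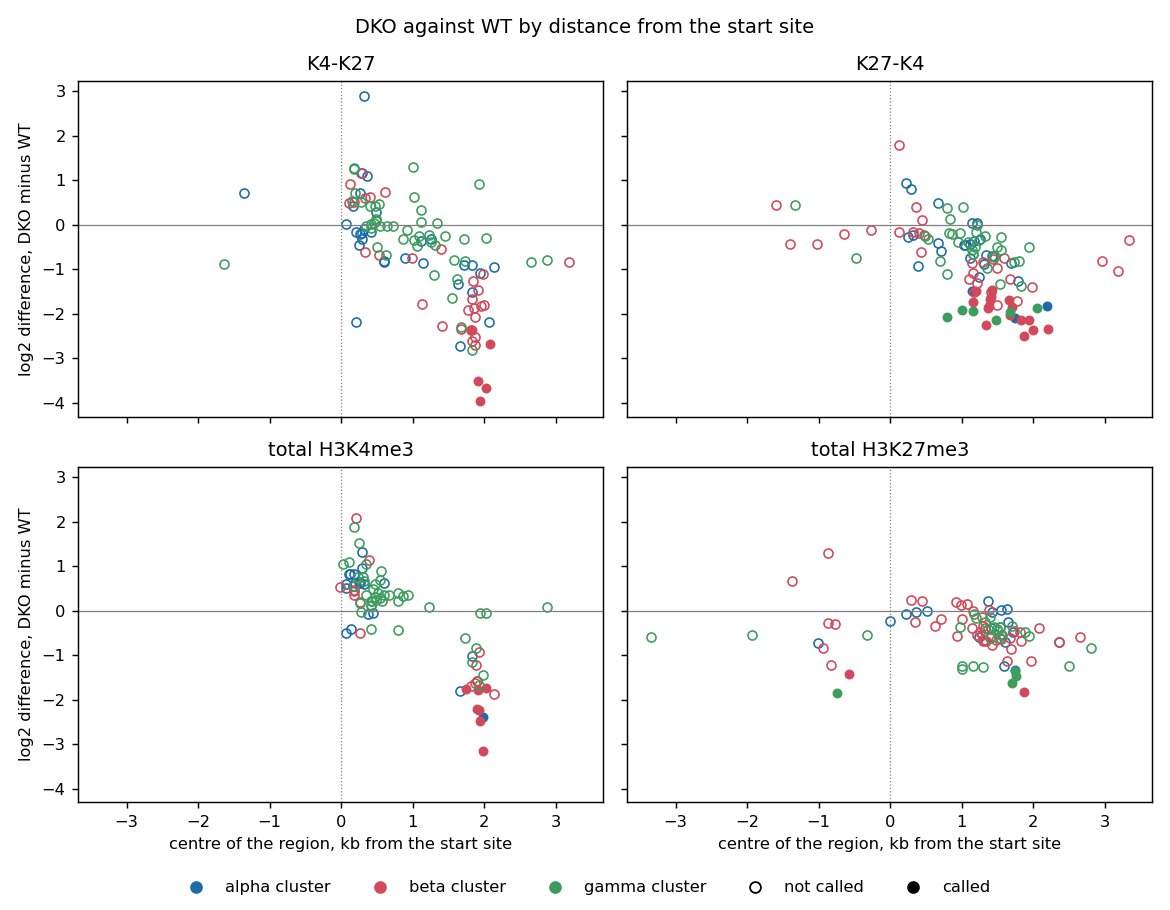
Log2 difference of DKO minus WT at the regions listed in WT or DKO clones, against the distance of the region's centre from the start site of its gene (kb), for the 4 ChIPs, with filled points for called regions. Most points within 1 kb of the start lie near or above 0 in K4-K27 and total H3K4me3, and further into the gene points reach −3.96 and −3.15. Regions up to 4 kb from a start site are drawn.

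Pcdha1 showed both places in 1 gene. Its start site region (36930001 to 36930900) read 2.50 and 1.31 in WT and 2.80 and 1.85 in DKO in K4-K27 (0.42), with overlapping groups. Its exon region (36931201 to 36932700) read 2.42 and 2.04 in WT and −1.40 and 0.42 in DKO (−2.72, adjusted p = 0.0989 by limma with Benjamini-Hochberg adjustment, not called). In K27-K4 its exon region (36931351 to 36932700) was called, with 3.26 and 2.31 in WT and 1.00 and 0.38 in DKO (−2.10 ± 0.43). Its start site region of the WT list was called lower in K27-K4 too (−1.49). The K27-K4 mean over its promoter and exon regions was −1.50, so the places differed less in that orientation. At the regions listed in the clones Pcdhgb8 had the same shape in K4-K27. It read 0.79 and 1.31 in WT and 2.99 and 1.62 in DKO at its start (1.26). Inside the exon it read 2.06 and 2.03 in WT and −0.37 and −0.13 in DKO (−2.29), and neither was called. At the E14 total H3K27me3 region inside its exon (37761901 to 37763550) it read 1.59 and 1.81 in WT and 1.83 and 0.97 in DKO. That difference was −0.30, with overlapping groups. At Pcdha1 such regions had K4-K27 differences of −2.50 (36930751 to 36931800) and −2.78 (36931801 to 36933000), not called.

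Total H3K4me3 was called lower at 9 of 108 regions of the interval (1 alpha, 7 beta, 1 outside the clusters) and higher at 0, against 2.47% and 0.254% of all regions. All 9 were regions of the WT list, and 1 of them (Pcdhb18) overlapped a region of the DKO list, so a lower DKO value was favoured by their selection. At the E14 total H3K27me3 regions, called without the clones, limma called 0 of 76 in total H3K4me3, as it did over all such regions, with 12 lower and 3 higher at an unadjusted p under 0.05, against 882 and 416 of all 21527 regions. The exon region of Pcdhb2 (37296151 to 37297500) read 2.18 and 0.63 in WT and −2.03 and −1.45 in DKO (−3.15 ± 0.64). That of Pcdhb21 (37515001 to 37516200) read 2.39 and 1.20 in WT and −1.03 and −0.34 in DKO (−2.48 ± 0.53). That of Pcdhb22 read 1.97 and 0.85 in WT and −0.71 and −0.00 in DKO (−1.76 ± 0.53). The groups were separate at each, with WT 57 the highest library, as it was over all regions.

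The remaining calls, named for completeness after their values were seen, were at Pcdhb4, Pcdhb5, Pcdhb10, Pcdhb18 and Pcdha3. Without WT 57 only 1 region of the interval was called, without WT 58 there were 20, and without either DKO clone 0. Leaving out the lowest quartile of regions by mean value left 1 call. At the E14 total H3K4me3 regions 1 of 29 was called lower, outside the clusters, and 0 higher (background 2.04% and 0.0364%). At 2 of the 29 both DKO clones were above both WT clones (background 8.63%).

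At start sites total H3K4me3 was not called in either direction. Of the 58 member regions that cover a start site, both DKO clones were above both WT clones at 22 and below at 0 (background 17.9% above and 12.6% below), and the median difference was 0.45. The 22 were 6 of 24 regions of the WT list and 16 of 35 of the DKO list, where a higher DKO value is favoured by selection, and overlapping regions of the 37 genes were both counted. At the 9 start site regions of the E14 total H3K27me3 list both DKO clones were above at 0 and below at 4 (median −0.36, background 15.2% above and 17.7% below). Of the 26 exon regions 8 were called lower and 19 had both DKO clones below (−1.61). The exon regions were listed 22 times in WT and 5 times in DKO, and at the E14 total H3K27me3 regions of the beta cluster the medians were −0.38 at 7 start site regions and −0.86 at 14 exon regions, with none called. Alpha start sites had a median difference of 0.62 over 17 regions, 5 of the WT list (0.51) and 12 of the DKO list (0.62), and the 1 alpha start site region of the E14 total H3K27me3 list read −0.09. In the region lists 12 alpha promoters had a listed total H3K4me3 region in DKO against 6 in WT, where the shares of all RefSeq genes were 56.1% and 60.2%. The DKO libraries of this mark were the deeper ones (27181436 and 24224789 reads against 18918372 and 16697637 in WT), and the part of depth in the count was not tested. Pcdha1 read 1.76 and 0.92 in WT and 2.13 and 1.66 in DKO at its start, and 1.17 and 0.26 in WT and −1.33 and −0.86 in DKO inside its exon.

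Total H3K27me3 changed at few regions, 3 of them at gamma B genes. It was called lower at 7 of 133 regions of the interval (1 alpha, 2 beta, 4 gamma), against 1.78% of all regions, and higher at 1, outside the clusters, against 0.976%. The 7 were regions of the WT list and the 1 of the DKO list. Median differences were −0.21 in the alpha, −0.46 in the beta and −0.52 in the gamma cluster, where all regions had 0.11. With each library centred on its median 0 were called. The count was 0 without WT 57 or DKO 43, 1 without DKO 53 and 4 without WT 58. At the E14 total H3K27me3 regions 3 of 76 were called lower (background 0.799%), and 5 without WT 58 but 0 without any other clone.

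Pcdhgb4 read 1.78 and 0.98 in WT and −0.07 and −0.41 in DKO in total H3K27me3 (−1.62 ± 0.42). Pcdhgb2 read 1.53 and 0.68 in WT and −0.56 and −0.14 in DKO (−1.46 ± 0.41). Pcdhgb8 read 1.67 and 0.87 in WT and 0.01 and −0.20 in DKO (−1.37 ± 0.42). The 2 genotypes did not overlap at any of them. The other calls were inside Pcdha5 (−1.34) and Pcdhb5 (−1.84) and upstream of Pcdhb16 (−1.41, from 12, 11, 5 and 8 reads) and Pcdhga4 (−1.85).

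At the E14 K27-K4 promoter regions, total H3K27me3 of both DKO clones was below both WT clones at 15 of 22 beta, 10 of 15 gamma and 3 of 13 alpha regions, against 16.6% of all. Total H3K4me3 was so at 15, 0 and 2 of them, against 25.8%. The median differences in the beta cluster were −0.56 for total H3K27me3 and −0.63 for total H3K4me3, and in the gamma cluster −0.57 and 0.18.

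Reads from near-identical copies can be lost or split among clustered protocadherin exons, and the share this takes at each gene was not tested.

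The genes around and beyond the clusters gave no calls in reChIPs at the regions listed in the clones. Over all those regions 1.19% were called lower in K4-K27 and 2.24% in K27-K4, so 0 calls in lists this short is near that share. Taf7 had no listed K27-K4 region there, and its K4-K27 region (37642201 to 37644900) read 2.23 and 1.95 in WT and 3.13 and 2.38 in DKO (0.66). Slc25a2 read −0.40 and −0.15 in WT and 0.23 and −0.10 in DKO in K27-K4 at its E14 region. Diaph1, a formin gene that starts just beyond the interval, read 3.20 and 2.86 in WT and 2.82 and 2.44 in DKO in K4-K27 (−0.41). Of 12 non-clustered protocadherin genes, relatives with dispersed loci, 10 had a K4-K27 and 10 a K27-K4 region in the clones, with median differences of −0.43 over 21 regions and −0.48 over 20, and 0 called. Of 12 genes for known regulators of the clusters, such as Ctcf, Rad21 and Smchd1, 12 had a K4-K27 region and 4 a K27-K4 region (medians −0.23 and −0.16), with 0 called. Of 7 stem cell markers 2 (Esrrb and Klf4) had a K27-K4 region in the clones, with a median difference of −0.93 over 4 regions and 0 called. At its E14 K27-K4 region Wiz, a regulator gene encoding a zinc finger protein, was called lower (2.11 and 1.61 in WT, 0.40 and 0.67 in DKO, −1.32), as was Klf4, a stem cell marker (−1.57). These were 1 of 13 regulator and 1 of 7 marker regions, against the 5.25% of all regions of that table.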

How the data were processed

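The deposited tables hold log2 values, which the authors computed in SeqMonk as log2 reads over listed regions, scaled to library size and region length in kb, after trimming, alignment and a mapping quality filter, with duplicates marked but kept (Trim Galore 0.6.6, BWA 0.7.13, Picard 2.6.0 and SAMtools 1.9 in the submitters' processing notes, mm10). The 12 tables (4 E14, 8 clone) gave 240 columns, and 32 other per-sample columns were not used. The sources name both EPIC2 and MACS2 as peak callers, and which of them, with which filter, gave the listed regions is not clear. With the lowest value of each library taken as 0 reads entered as 0.9 reads, all other values came out within 0.02 of a whole read. Depth was 6741245 to 47903464 reads per library, and its precision is limited at regions with few reads.

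DKO and WT clones were compared with limma 3.58.1 in R 4.3.3 (trend and robust estimation) over all regions of the WT and DKO tables, with Benjamini-Hochberg adjustment over all of them. A region was called at an adjusted p under 0.05 and a log2 difference over 1. The test was checked on simulated data. E14 orientations were compared in the same way. E14 replicates with the same number shared a sequencing batch, and their deviations correlated at r = 0.19 over 21857 regions. WT and DKO clone numbers pair nothing. Tables and plots were made with Python 3.11.15, pandas 2.3.3, numpy 2.4.6 and matplotlib 3.10.9.

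The members and lists were chosen with earlier results of these data known. Genes named were the C-type genes, the first and last gene of each cluster, up to 5 genes per cluster with called reChIP regions, the gene of highest E14 enrichment per cluster, and the neighbours. Others were named after their values were seen. Alternatives covered scaling, tests, filters, region lists and left-out libraries, and those on E14 regions, overlapping regions and recovered reads were added after seeing the data. Promoter sequence was not analysed here.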

Additional observations from a re-analysis of the deposited data

How the results depend on the processing

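No called region changed sign under the alternatives run on the clone regions. These regions were picked for differences over 1 log2 unit in the same libraries, so a kept sign says little, and many calls were lost. Counts below are regions of the interval called lower in DKO than in WT, and the cause of a change was not tested. For K4-K27, 5 became 3 with quantile normalisation (1 of the 5 among them), 3 with limma-voom on recovered reads (all 3 among the 5), 7 at E14 regions and 3 when those were centred, 14 without trend and robust estimation, 1 with DKO regions only and 0 at E14 total H3K27me3 regions. Leaving out 1 library gave 0 to 4, and 1 to 5 at E14 regions. For K27-K4, 25 became 0 without trend and robust estimation, 2 with DKO regions only, 11 without overlapping DKO regions, 15 at centred E14 regions and 9 at E14 total H3K27me3 regions, and 2 to 52 without 1 library (2 to 30 at E14 regions, with 13 without WT 57). For total H3K4me3, 9 became 14 with centring, 15 with quantile normalisation, 3 with WT and 0 with DKO regions only, 1 without the lowest quartile, 1 at E14 regions, 2 when those were centred and 0 at E14 total H3K27me3 regions, and 0 to 20 without 1 library (0 to 2 at E14 regions). For total H3K27me3, 7 became 0 with centring, quantile normalisation, DKO regions only, no overlapping DKO regions or centred E14 regions, 3 without trend and robust estimation, 2 without the lowest quartile, 11 with limma-voom and 3 at E14 regions, and 0 to 4 without 1 library (0 to 5 at E14 regions).

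With 1 library left out, the lone clone was assumed to vary like the other genotype's. At a threshold of 1 log2 unit, 70 K4-K27, 65 K27-K4, 21 total H3K4me3 and 51 total H3K27me3 regions of E14 exceeded IgG–IgG. With at least 10 IgG–IgG reads, 1 total H3K4me3 and 1 total H3K27me3 region did so at 2 units, and with 1 replicate left out 4 to 10 total H3K4me3 regions did. The window of 1 kb before to 100 bp after the start left 17 promoters with total H3K27me3 in E14, 36 with K4-K27 in WT and 21 with total H3K27me3 in DKO. With the replicate block 1 region differed between orientations, against 0, and no other call was tested with a block. The beta median stayed negative in K27-K4 under 19 alternatives (−1.47 to −0.69), and turned positive with DKO regions only in K4-K27 (0.56) and total H3K4me3 (0.40). In total H3K27me3 the alpha median took the other sign under 3 of 18 alternatives (up to 0.28). The gamma median did so under 8 of 19 in K4-K27 and 3 of 19 in total H3K4me3, and the alpha median under 2 of 13 in total H3K4me3. Some called regions rest on few reads, and depth limits their precision.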

Other observations

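Outside the 3 clusters but inside the interval, 2 regions were called in totals (limma, Benjamini-Hochberg). Total H3K4me3 between the beta and gamma clusters (37543501 to 37544550) read 1.84 and 0.33 in WT and −2.03 and −1.21 in DKO (−2.70 ± 0.67). Total H3K27me3 just before the beta cluster (37259101 to 37259400) was higher in DKO, from only 2 and 5 reads in WT and 13 and 15 in DKO. Both were noted after their values were seen.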
